A study of Mus musculus with 18 samples.

Results

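Transcripts of 7 GABA-A receptor subunit genes were measured in the hippocampus of adolescent male wild-type C57BL/6J mice. The genes were given as a list of symbols, Gabra2, Gabra3, Gabra4, Gabra5, Gabrb1, Gabrb2 and Gabrd, and were matched to the Ensembl identifiers of the count table. All 7 of 7 were found among 57180 identifiers, and all 7 passed the filter on low counts, as did 16738 genes in all. They are 7 of 19 GABA-A receptor subunit genes in the table. Every mouse gave its own library, and each of 3 groups held 6 mice picked at random. Mice of the first group were exposed to chronic social defeat stress (CSDS), repeated encounters with a dominant resident, and also trained aerobically from before the defeat until its end. The second group went through CSDS without training. The third was the untreated control group. All 18 libraries carry the same batch label, and the labels describe all mice as adolescent.

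GABA-A receptors are chloride channels that GABA, the main inhibitory transmitter of the adult brain, opens. Most combine alpha and beta subunits with either a gamma or the delta subunit, and the alpha subunit sets much of where the receptor sits and which drugs bind it. Receptors with alpha2 or alpha3 are held mainly at synapses, where they carry brief inhibition. Those with delta, which in the forebrain pairs mostly with alpha4, and many of those with alpha5 lie outside the synapse and carry tonic inhibition. In the hippocampus alpha5 is abundant on pyramidal cells, whereas alpha4 and delta mark dentate granule cells and, outside the hippocampus, thalamic relay neurons. Gabra2 and Gabra3 were therefore taken as the synaptic alpha subunits, Gabra4, Gabra5 and Gabrd as the extrasynaptic subunits, and Gabrb1 and Gabrb2 as beta subunits, which occur in both kinds of receptor.

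The 4 alpha genes code for a short stretch that differs between classical benzodiazepine-sensitive and insensitive receptors, and it is shown because it separates alpha4 from the other 3. Benzodiazepines bind between the alpha and gamma subunits, where a histidine of the alpha subunit is needed and an arginine prevents binding. Each line is 45 bases of coding sequence on the gene's minus strand from the GENCODE M21 annotation of GRCm38, with the codon for that residue in capitals.
Gabra2: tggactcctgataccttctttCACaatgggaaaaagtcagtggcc
Gabra3: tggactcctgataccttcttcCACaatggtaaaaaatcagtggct
Gabra4: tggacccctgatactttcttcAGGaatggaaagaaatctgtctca
Gabra5: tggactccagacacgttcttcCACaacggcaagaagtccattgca
The Gabra2 stretch lies at chr5:71014484-71014528 in exon 5 and the Gabra3 stretch at chrX:72501147-72501191 in exon 5. The Gabra4 stretch lies at chr5:71641131-71641175 in exon 4 and the Gabra5 stretch at chr7:57488870-57488914 in exon 5. The codon is CAC, for histidine, in Gabra2, Gabra3 and Gabra5 and AGG, for arginine, in Gabra4. Gabra2 and Gabra3 share 91.1% of the 45 bases, and Gabra4 and Gabra5 share the fewest, 68.9%.

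Total estimated counts were 18911080 to 24136591 per library. Markers of neighbouring brain regions differed between libraries in a way the groups do not explain. The mean level of 12 thalamic neuron markers was 5.34 and 6.65 log2 CPM, the count scaled to library size and put on a log2 scale, in exercised CSDS replicates 3 and 6 and 5.30 and 6.16 in control replicates 1 and 3, against 3.42 to 3.91 in the other 14 libraries. Tcf7l2, a transcription factor of thalamic neurons, was at 33.3 and 143 CPM in those 2 exercised CSDS mice and at 28.8 and 70.0 CPM in those 2 control mice, and at 3.99 to 7.92 CPM elsewhere. The summed level of these 12 markers ran from 316 to 1704 CPM in exercised CSDS mice, from 353 to 422 CPM in CSDS mice and from 343 to 1196 CPM in control mice. Control replicate 2 went against its tissue label. Its dentate granule cell markers averaged 2.48 log2 CPM against 5.09 to 5.79 in the other 17 libraries, and its 13 measured neocortical neuron markers averaged 5.55 against 4.43 to 5.27. The summed level of the neocortical markers ran from 533 to 684 CPM in exercised CSDS mice, from 557 to 618 CPM in CSDS mice and from 556 to 1208 CPM in control mice. In it Prox1 and C1ql2, genes of dentate granule cells, were at 10.4 and 0.408 CPM, and Lamp5 and Tbr1, genes of cortical neurons, at 259 and 164 CPM. Results are given with all 18 libraries and, where they move, without control replicate 2 or without these 5 libraries, which leaves 4 exercised CSDS, 6 CSDS and 3 control mice. The 5 were chosen by their markers after the data were seen. No CSDS library without exercise was among them.

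Between the 3 groups, none of the 7 subunit genes passed edgeR's test over all genes with all 18 libraries, and the groups overlapped for every member in every comparison. In CSDS against control the largest difference was that of Gabrd, with a log2 fold change of -0.88 ± 0.30 (SE), and it was -0.11 ± 0.15 without the 5 libraries. For exercise within CSDS it was that of Gabra4, at 0.53 ± 0.15, and it was 0.28 ± 0.11 without them. Exercised CSDS against control gave values from -0.55 ± 0.30 for Gabrd to 0.48 ± 0.21 for Gabra2.

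edgeR's quasi-likelihood test, with Benjamini-Hochberg adjustment over 16738 genes, called 0 of 7 members at an adjusted p under 0.05 in each comparison. Over all genes it called 0% in CSDS against control, 0% in exercised CSDS against CSDS and 0.0179% (3 genes) in exercised CSDS against control. At an unadjusted p under 0.05, 1 member was lower and 0 higher in CSDS than in control mice, against 1.68% of all genes lower and 1.83% higher. Exercise within CSDS gave 2 higher and 0 lower, against 8.10% and 7.46% of all genes. Against control, exercised CSDS mice had 2 higher and 0 lower, against 6.80% and 4.39%. DESeq2 also called 0 of 7 in each comparison, against 0.00320% of all genes in CSDS against control, 1.35% in exercised CSDS against CSDS and 0.590% in exercised CSDS against control. Limma voom with quality weights called 2 of 7, Gabra4 and Gabrb1, in exercised CSDS against CSDS, against 33.3% of all genes. It called 0 of 7 in CSDS against control and in exercised CSDS against control, against 0% and 1.09%. Groups did not overlap for 0 of 7 members in any comparison, against 0.239%, 0.890% and 0.562% of all genes in CSDS against control, exercised CSDS against CSDS and exercised CSDS against control. The log2 fold change was positive in 3 of 7, 7 of 7 and 5 of 7 members, with medians of -0.15, 0.24 and 0.17 beside medians of 0.00, 0.02 and 0.01 over all genes. Without the 5 libraries the medians were -0.04, 0.07 and 0.04, with 2, 4 and 4 of 7 positive. In that setting 1 of 7 members was higher and 0 lower at an unadjusted p under 0.05 in exercised CSDS against CSDS, beside 5.10% and 5.67% of all genes. Each pair of comparisons shares 1 group of mice, so these counts are not independent of each other. In bulk tissue, fewer cells of a type and less RNA per cell cannot be told apart.

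**Figure D1:**
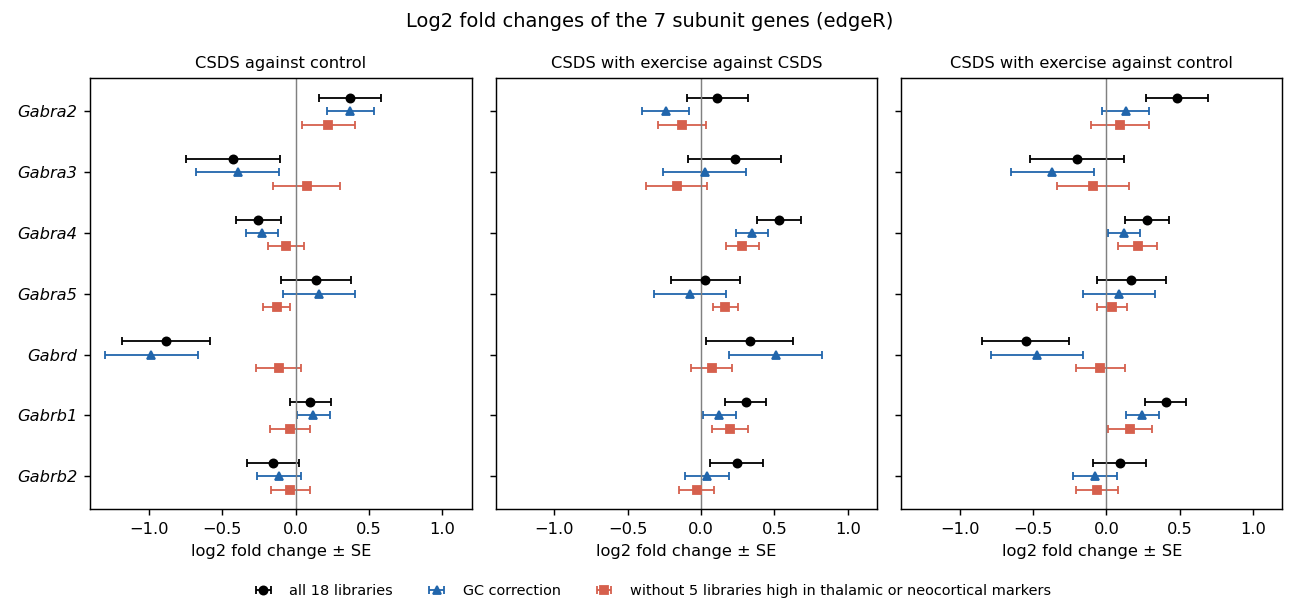
Log2 fold change ± SE of each subunit gene in the 3 comparisons, from edgeR with all 18 libraries (black), with GC correction (blue) and without the 5 libraries high in thalamic or neocortical markers (red). Gabrd in CSDS against control lies at -0.88 with all libraries and at -0.11 without the 5.

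Levels were compared between genes as CPM per kilobase of the median GENCODE M21 transcript. Gabra5 was the most abundant member, at 59.3 ± 13.4 CPM per kilobase over the 18 libraries (SD). Gabrb2 followed at 44.7 ± 11.4, then Gabra4 at 36.3 ± 9.16 and Gabra3 at 34.8 ± 17.03. Those 3 neighbours lie within their spread of each other. Gabrb1, at 18.3 ± 3.80, Gabra2, at 16.2 ± 5.15, and Gabrd, at 14.7 ± 8.63 CPM per kilobase, formed the lower end and also lie within their spread. Per kilobase of the longest transcript Gabra5 was still highest, at 57.9 ± 13.1, and Gabra2 lowest, at 6.74 ± 2.14. Gabra4 then stood above Gabrb2, and Gabrd above Gabrb1.

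Extrasynaptic subunit transcripts exceeded synaptic alpha transcripts in every library, and the share was steadiest in CSDS mice. The log2 ratio of the summed CPM per kilobase of Gabra4, Gabra5 and Gabrd to that of Gabra2 and Gabra3 was 1.26 ± 0.56 in exercised CSDS mice, 1.13 ± 0.11 in CSDS mice and 1.15 ± 0.56 in control mice (SD, n = 6 each). The lowest ratio was 0.10, in control replicate 2, where Gabra5 made up 5.70% of the 7 genes' sum and Gabrd 16.4%. In the other 5 control mice the ratio was 1.37 ± 0.24. Among exercised CSDS mice the ratio was lowest in replicate 3, at 0.48, and highest in replicate 4, at 2.19. The longest transcript lengths gave 2.02, 1.95 and 1.89 in exercised CSDS, CSDS and control mice, so the size of the ratio depends on the length used. The 3 groups overlapped, and no test was made on these sums.

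**Figure D2:**
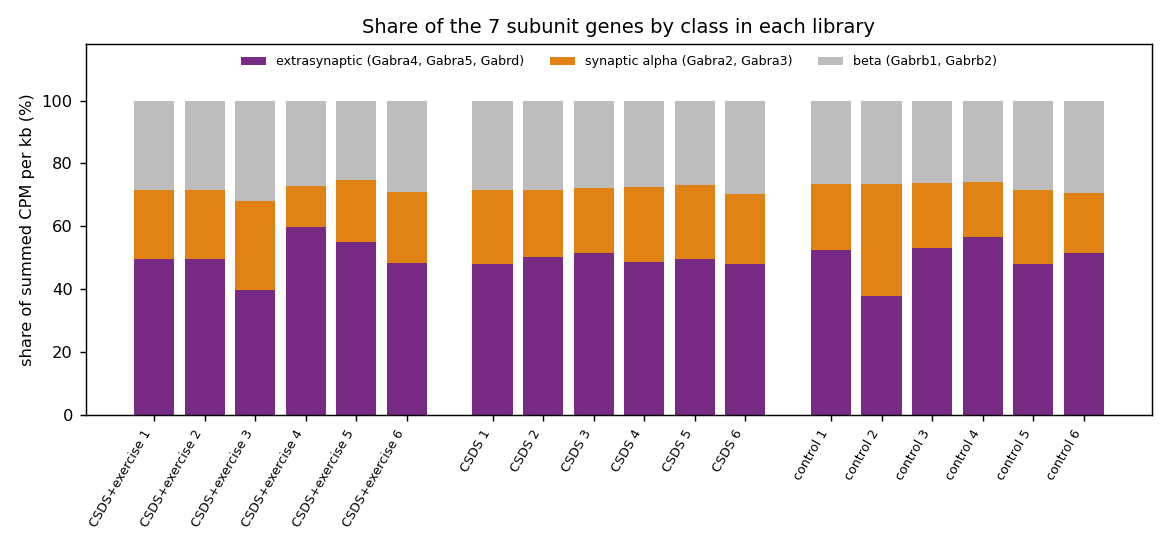
Share (%) of the summed CPM per kilobase of the 7 genes taken by extrasynaptic, synaptic alpha and beta subunits, 1 bar per mouse. The extrasynaptic share runs from 39.6% to 59.7% in exercised CSDS mice, from 47.8% to 51.3% in CSDS mice and from 37.9% to 56.4% in control mice.

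Among the synaptic alpha subunits, Gabra2 had higher medians in both defeated groups than in control mice, but its differences did not pass edgeR's test over all genes. Gabra2 had a lowest, median and highest level of 30.05, 41.3 and 78.3 CPM in exercised CSDS mice, of 36.7, 39.9 and 51.4 CPM in CSDS mice and of 21.9, 29.6 and 47.3 CPM in control mice. Exercised CSDS replicate 3 stood far above the rest of its group, and 4 of 6 control mice lay below the lowest CSDS mouse, with all 3 groups overlapping. Its log2 fold change was 0.37 ± 0.21 in CSDS against control (adjusted p = 0.993), 0.11 ± 0.21 in exercised CSDS against CSDS (adjusted p = 0.815) and 0.48 ± 0.21 in exercised CSDS against control (edgeR adjusted p = 0.406). Without the 5 libraries these were 0.22 ± 0.18, -0.13 ± 0.16 and 0.09 ± 0.20.

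Gabra3, the alpha subunit common in monoamine neurons and in cortex, lay at 25.5, 56.7 and 113 CPM (lowest, median, highest) in exercised CSDS mice. In CSDS mice it lay at 38.8, 53.6 and 66.1 CPM and in control mice at 37.6, 58.1 and 162 CPM. The highest value was that of control replicate 2, the library high in neocortical markers, and the other 5 control mice lay between 37.6 and 61.4 CPM. The log2 fold change in CSDS against control was -0.43 ± 0.32 (adjusted p = 0.993) with this library and -0.01 ± 0.25 (adjusted p = 0.9997) without it. Between exercised CSDS and CSDS it was 0.23 ± 0.32 (adjusted p = 0.743), and -0.16 ± 0.21 without the 5 libraries. Between exercised CSDS and control it was -0.20 ± 0.32 (adjusted p = 0.839), and 0.22 ± 0.25 without control replicate 2.

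Gabrd, which codes for the delta subunit of tonic, neurosteroid-sensitive receptors, had the largest log2 fold change of the 7 genes in CSDS against control, and 3 control libraries held its highest control values. Its lowest, median and highest levels were 17.8, 25.5 and 38.1 CPM in exercised CSDS mice, 18.6, 20.8 and 22.9 CPM in CSDS mice and 20.8, 27.3 and 88.3 CPM in control mice. The CSDS mice formed a narrow band, and the 3 highest control mice were replicate 2, at 88.3 CPM, replicate 3, at 42.6 CPM, and replicate 1, at 31.0 CPM. These are the library high in neocortical markers and the 2 control libraries high in thalamic markers. The 2 exercised CSDS mice with high thalamic markers, replicates 3 and 6, had 31.4 and 38.1 CPM. Exercised CSDS replicate 4, whose thalamic markers were not high (3.52 log2 CPM), lay close below replicate 3. Control replicates 4 to 6 averaged 22.4 ± 1.47 CPM (SD, n = 3), beside 20.7 ± 1.72 CPM in CSDS mice (SD, n = 6).

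The log2 fold change of Gabrd in CSDS against control was -0.88 ± 0.30 (edgeR adjusted p = 0.993). It was -0.44 ± 0.20 (adjusted p = 0.9997) without control replicate 2 and -0.11 ± 0.15 (adjusted p = 0.999) without the 5 libraries. Between exercised CSDS and CSDS it was 0.33 ± 0.30 (adjusted p = 0.586) with all libraries and 0.07 ± 0.14 without the 5. Between exercised CSDS and control the values were -0.55 ± 0.30 (adjusted p = 0.491) and -0.04 ± 0.17. The 12 thalamic markers had negative log2 fold changes in 12 of 12 members in CSDS against control (median -1.10, 4 at an unadjusted p under 0.05) and positive ones in 12 of 12 in exercised CSDS against CSDS (median 1.18, 7 at an unadjusted p under 0.05). Their median was 0.19 in exercised CSDS against control. Over all genes the 3 medians were 0.00, 0.02 and 0.01. At an unadjusted p under 0.05 by edgeR, 1.68% of all genes were lower in CSDS against control. In exercised CSDS against CSDS 8.10% were higher.

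**Figure D3:**
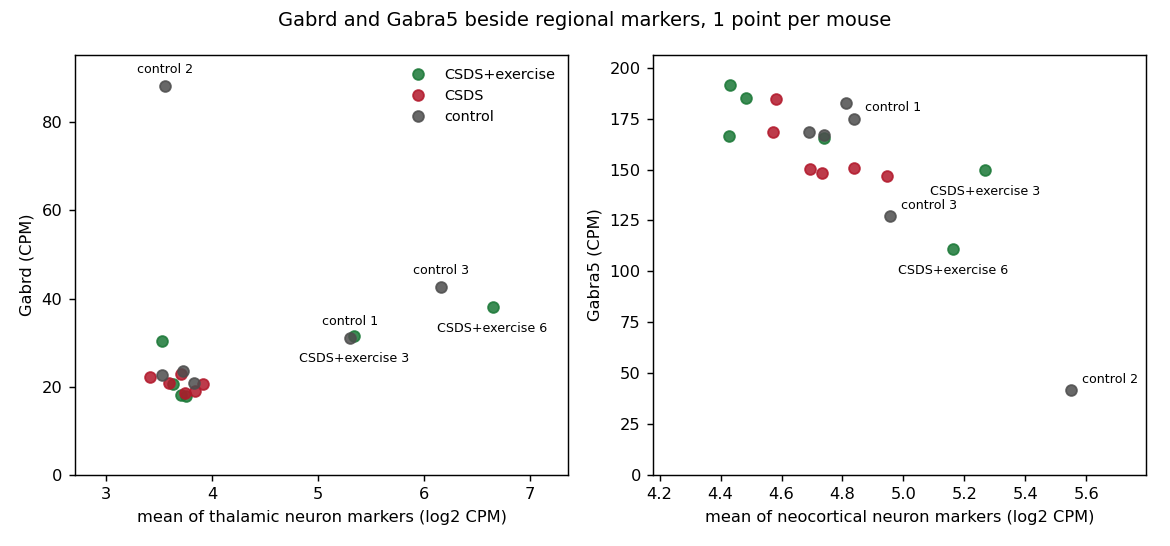
Gabrd (CPM) against the mean of thalamic neuron markers (log2 CPM), left, and Gabra5 (CPM) against the mean of neocortical neuron markers (log2 CPM), right, with 1 point per mouse and the 5 libraries named. Gabrd exceeds 30.5 CPM, a level taken from these values, only in the 5 named libraries. The highest of them, control replicate 2 at 88.3 CPM, is not high in thalamic markers (3.56 log2 CPM). Exercised CSDS replicate 4, which is not named and has thalamic markers at 3.52 log2 CPM, lies just below 30.5 CPM. Gabra5 is lowest, at 41.7 CPM, in control replicate 2.

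Gabra4, the alpha subunit that joins delta in dentate granule cells and thalamus, had the highest values in exercised CSDS mice. It lay at 75.7, 82.0 and 129 CPM (lowest, median, highest) in exercised CSDS mice, at 53.5, 65.6 and 84.7 CPM in CSDS mice and at 60.3, 77.7 and 97.2 CPM in control mice. In exercised mice, 2 values stood above the rest, 129 CPM in replicate 3 and 122 CPM in replicate 6, the 2 with high thalamic markers. The other 4 exercised CSDS mice held 79.5 ± 3.36 CPM (SD, n = 4), against 65.6 ± 10.9 CPM in CSDS mice (SD, n = 6). The highest CSDS mouse, at 84.7 CPM, overlapped them.

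The log2 fold change of Gabra4 in exercised CSDS against CSDS was 0.53 ± 0.15 (edgeR adjusted p = 0.198). An exact two-sided permutation test of log2 CPM gave p = 0.0108, and 0.197 after Benjamini-Hochberg adjustment over the 21 tests of 7 genes in 3 comparisons. Without the 5 libraries the value was 0.28 ± 0.11 (edgeR adjusted p = 0.423). It passed by limma voom, at 0.45 (adjusted p = 0.0055), where 33.3% of all genes did, and by edgeR without exercised CSDS replicate 4, at 0.57 (adjusted p = 0.0478), where 3.71% of all genes did. Across all alternatives it kept its sign, between 0.28 and 0.62, with adjusted p from 0.0055 to 0.999. In CSDS against control Gabra4 had -0.25 ± 0.15 (adjusted p = 0.993), and -0.07 ± 0.12 without the 5 libraries. Between exercised CSDS and control it had 0.28 ± 0.15 (adjusted p = 0.495) and 0.21 ± 0.13.

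Gabra5, the extrasynaptic alpha subunit of hippocampal pyramidal cells, was close in the 3 groups apart from single libraries. Its lowest, median and highest levels were 111, 166 and 192 CPM in exercised CSDS mice, 147, 151 and 185 CPM in CSDS mice and 41.7, 168 and 183 CPM in control mice. The lowest value was that of control replicate 2, and the lowest of the other 17 were 111 CPM in exercised CSDS replicate 6 and 127 CPM in control replicate 3, both high in thalamic markers. Control replicate 1 and exercised CSDS replicate 3, also high in thalamic markers, lay within the range of the CSDS mice. Its log2 fold change was 0.14 ± 0.24 in CSDS against control (adjusted p = 0.993), 0.03 ± 0.24 in exercised CSDS against CSDS (adjusted p = 0.96) and 0.17 ± 0.24 in exercised CSDS against control (adjusted p = 0.808). Without control replicate 2 the first and last were -0.05 ± 0.12 and -0.02 ± 0.12.

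**Figure D4:**
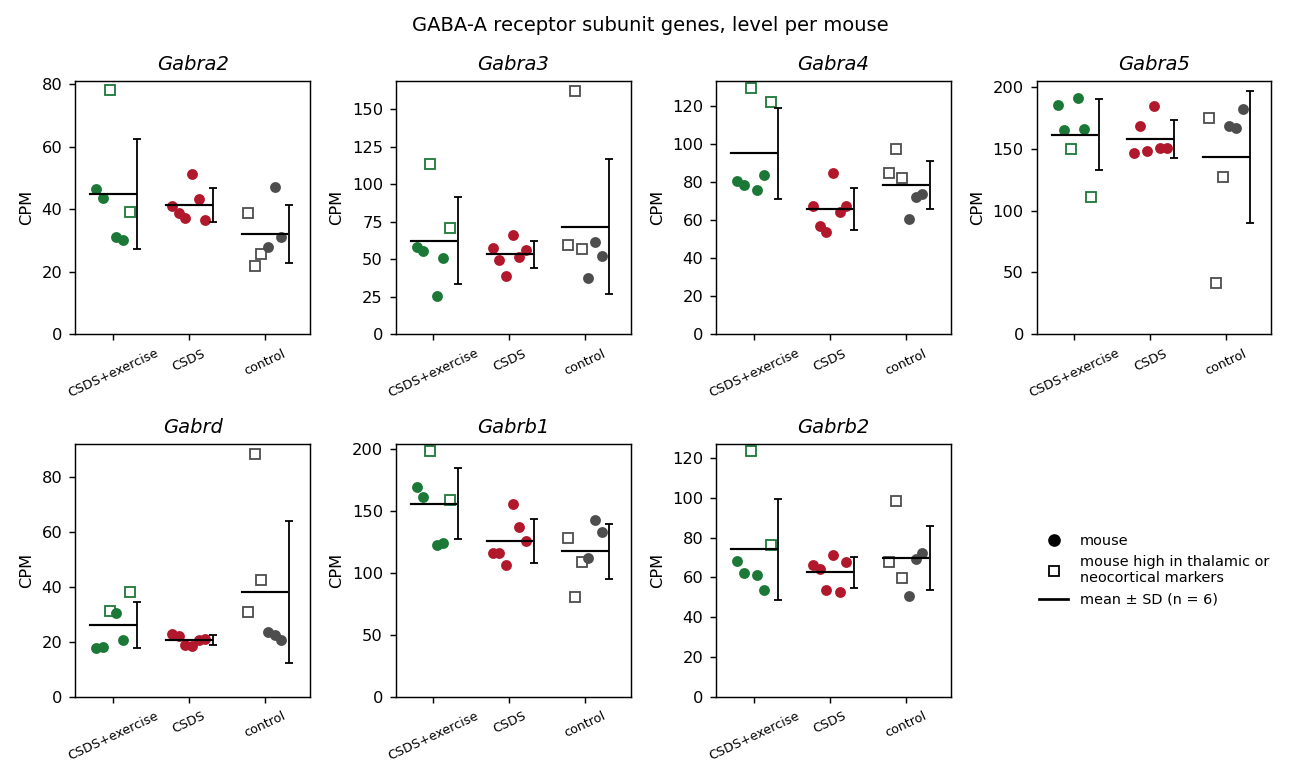
CPM of each subunit gene in every mouse of the exercised CSDS, CSDS and control groups, with the mean ± SD of 6 mice; open squares are the 5 libraries high in thalamic or neocortical markers. Control replicate 2 holds the highest Gabra3 and Gabrd values and the lowest Gabra5 value of its group, and exercised CSDS replicate 3 the highest values of its group for Gabra2, Gabra3, Gabra4, Gabrb1 and Gabrb2.

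Of the beta subunits, which help form the GABA binding site, Gabrb1 had its highest median in exercised CSDS mice, with no difference past edgeR's test over all genes. Gabrb1 lay at 123, 160 and 198 CPM (lowest, median, highest) in exercised CSDS mice, at 106, 121 and 155 CPM in CSDS mice and at 80.5, 120 and 142 CPM in control mice. In exercised CSDS mice 4 of 6 values, from 159 to 198 CPM, lay above every CSDS and control mouse, and the other 2 lay among them. Its log2 fold change was 0.31 ± 0.14 in exercised CSDS against CSDS (edgeR adjusted p = 0.304) and 0.41 ± 0.14 in exercised CSDS against control (edgeR adjusted p = 0.296). Limma voom, which called 33.3% of all genes there, called the first, at 0.41 (adjusted p = 0.0048). Without the 5 libraries the 2 values were 0.20 ± 0.13 and 0.16 ± 0.15. In CSDS against control Gabrb1 had 0.10 ± 0.14 (adjusted p = 0.993).

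Gabrb2, the other beta subunit, lay at 53.5, 65.2 and 123 CPM in exercised CSDS mice, at 52.4, 65.4 and 71.3 CPM in CSDS mice and at 50.8, 68.4 and 98.2 CPM in control mice. The medians were close, and the high values were single libraries, exercised CSDS replicate 3 and control replicate 2. Its log2 fold change was -0.15 ± 0.18 in CSDS against control (adjusted p = 0.993), 0.24 ± 0.18 in exercised CSDS against CSDS (adjusted p = 0.499) and 0.09 ± 0.18 in exercised CSDS against control (adjusted p = 0.876). Without the 5 libraries the 3 values were -0.04 ± 0.13, -0.03 ± 0.12 and -0.07 ± 0.14.

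Gabra4 and Gabrb1, the 2 members at an unadjusted p under 0.05 in exercised CSDS against CSDS, lie head to head on chromosome 5. In GENCODE M21 their ends overlap by 196 bases, at chr5:71658113-71658308 of GRCm38, with Gabra4 on the minus and Gabrb1 on the plus strand, so reads there are uncertain: the libraries were stranded per the labels' protocols, but no source used here gives the strand setting of the counting. The same limit holds for Gabra5, which also overlaps an annotated gene on the opposite strand. The promoter windows of Gabra4 and Gabrb1, from 250 bases before to 50 bases after each start, are shown because they face each other; they come from RefSeq with GRCm38.p6. The Gabra4 window is chr5:71658259-71658558 on the minus strand. The Gabrb1 window is chr5:71657671-71657970 on the plus strand, with matches to the EGR motif GCGNGGGCG, searched on both strands, in capitals.
Gabra4: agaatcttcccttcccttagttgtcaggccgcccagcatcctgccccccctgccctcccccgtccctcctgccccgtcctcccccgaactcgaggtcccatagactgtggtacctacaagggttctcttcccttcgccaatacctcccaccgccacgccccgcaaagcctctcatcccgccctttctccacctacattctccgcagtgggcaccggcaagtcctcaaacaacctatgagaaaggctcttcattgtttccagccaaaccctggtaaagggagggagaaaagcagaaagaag
Gabrb1: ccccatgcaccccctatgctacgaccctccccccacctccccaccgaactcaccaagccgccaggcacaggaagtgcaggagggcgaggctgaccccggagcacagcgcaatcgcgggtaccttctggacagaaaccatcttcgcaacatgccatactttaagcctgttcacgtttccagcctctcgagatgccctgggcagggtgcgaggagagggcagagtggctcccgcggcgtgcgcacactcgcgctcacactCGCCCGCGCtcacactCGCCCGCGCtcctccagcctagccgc
The Gabrb1 window has a GC content of 66.0% and 2 EGR matches, and the Gabra4 window 58.7% and 0. Of 32851 promoter windows of this length, 5.55% hold an EGR match. The CRE motif TGACGTCA and its core TGACG were found in neither window and in 1.79% and 20.8% of all windows. A second Gabrb1 window, at chr5:71699682-71699981, holds none of these motifs. Of the other members, Gabrb2 has 1 EGR match and 1 CRE core match in the same window. The windows of Gabra2, Gabra3 and Gabra5 hold none. A window was found for 6 of 7 members, all but Gabrd.

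Libraries differed in how their counts followed base composition. The slope of a library's deviation in log2 CPM on transcript GC content, per 10 percentage points, was -0.16 ± 0.21 in exercised CSDS mice, 0.12 ± 0.18 in CSDS mice and 0.05 ± 0.15 in control mice (SD, n = 6 each). Of the 7 members Gabra2 had the lowest transcript GC content, 38.8%, and Gabrd the highest, 56.8%. With GC content corrected, exercised CSDS against CSDS gave 0.35 ± 0.11 for Gabra4 (edgeR adjusted p = 0.769), 0.13 ± 0.11 for Gabrb1 (adjusted p = 0.947) and -0.24 ± 0.16 for Gabra2 (adjusted p = 0.931). Exercised CSDS against control gave 0.24 ± 0.11 for Gabrb1 (adjusted p = 0.696) and 0.13 ± 0.16 for Gabra2 (adjusted p = 0.911). In CSDS against control Gabrd was -0.98 ± 0.32 and Gabra2 0.37 ± 0.16 (edgeR adjusted p = 0.987 for each). There 1 of 7 members was higher and 1 lower at an unadjusted p under 0.05, beside 1.69% and 2.34% of all genes. At an unadjusted p under 0.05 the correction left 1 of 7 members higher and 0 lower in exercised CSDS against CSDS, beside 3.06% and 2.51% of all genes.

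Of the 12 remaining GABA-A subunit genes, 8 passed the filter on low counts, and 0 of these 8 were called by edgeR in any comparison. All 8 log2 fold changes were positive in exercised CSDS against CSDS (median 0.30), with 0 at an unadjusted p under 0.05, and without the 5 libraries 7 of 8 were (median 0.12, 1 at an unadjusted p under 0.05). Gabrg1, a gamma subunit, was at 18.4 ± 8.71 CPM in exercised CSDS and 12.25 ± 3.9996 CPM in CSDS mice (0.59 ± 0.28, adjusted p = 0.326). It had 0.11 ± 0.17 there with GC correction and 0.13 ± 0.26 without the 5 libraries. Gabrr2, a rho subunit known from the retina, was at 0.574 ± 0.240 CPM in CSDS and 1.26 ± 1.14 CPM in control mice (-1.13 ± 0.49, adjusted p = 0.993). Without the 5 libraries Gabrr2 had -0.08 ± 0.45 there, and 1.09 ± 0.39 in exercised CSDS against CSDS (adjusted p = 0.4). Gabrg3, Gabre and Gabrq did not pass an unadjusted p under 0.05 in any comparison, and Gabra6, Gabrp, Gabrr1 and Gabrr3 were too low to be tested.

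Genes that make, move and hold GABA or its receptors were counted in the same way, and edgeR called 0 in every list. At an unadjusted p under 0.05 the shares of all genes, higher and lower, were 8.10% and 7.46% in exercised CSDS against CSDS, 1.83% and 1.68% in CSDS against control and 6.80% and 4.39% in exercised CSDS against control. Of 8 genes of GABA synthesis, release and uptake, 2 were lower and 0 higher in exercised CSDS against CSDS, and 0 and 0 with GC correction. Slc32a1, the vesicular GABA transporter, was at 78.5 ± 7.59 CPM in exercised CSDS and 110 ± 14.0 CPM in CSDS mice (-0.48 ± 0.10, edgeR adjusted p = 0.151). Of 22 receptor anchoring and trafficking genes, 3 were higher and 1 lower in that comparison, 1 and 1 in CSDS against control and 4 and 0 in exercised CSDS against control. With GC correction these were 1 and 0, 1 and 1, and 1 and 0. Lhfpl4, a protein that helps hold these receptors at synapses, was at 199 ± 12.6 CPM in CSDS and 175 ± 5.89 CPM in control mice without overlap (0.19 ± 0.06, edgeR adjusted p = 0.993). In CSDS against control 0.239% of all genes did not overlap, and 11 of these 22 genes had positive and 11 negative log2 fold changes. Plcl1, a receptor-binding protein that guides its trafficking, was at 44.8 ± 9.17 CPM in exercised CSDS and 33.0 ± 4.72 CPM in CSDS mice (0.44 ± 0.13). Insyn1, a protein of inhibitory synapses, was at 114 ± 26.8 and 158 ± 33.9 CPM (-0.47 ± 0.16). Of 8 chloride transport genes, which set the driving force for these channels, 2 were higher and 1 lower in exercised CSDS against CSDS, and 0 and 0 with GC correction. Clcn2, a chloride channel, was at 39.5 ± 6.62 and 50.8 ± 10.3 CPM in exercised CSDS and CSDS mice (-0.36 ± 0.14 without that correction). Of 5 GABA-B receptor genes and of 7 neurosteroid synthesis and modulator genes, 0 had an unadjusted p under 0.05 in any comparison, except that 1 neurosteroid gene was lower in exercised CSDS against CSDS with GC correction; without the 5 libraries 1 gene of each list was lower there and 1 neurosteroid gene higher in exercised CSDS against control.

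Correlations between members across libraries are given as descriptions, because all libraries share their depth scaling, base composition and regional content, and several depend on control replicate 2. Over 18 libraries the Pearson correlation of log2 CPM was 0.84 between Gabra2 and Gabrb1, 0.81 between Gabra3 and Gabrb2 and -0.85 between Gabra5 and Gabrd. Without control replicate 2 these were 0.79, 0.77 and -0.56. Leaving out that library moved the correlation of Gabra2 and Gabra3 to 0.70, against 0.16 with it, that of Gabra3 and Gabrb1 to 0.69, against 0.05, and that of Gabrb1 and Gabrb2 to 0.73, against 0.29. Gabra4 and Gabrd, which share a receptor, had 0.52 over 18 libraries and 0.53 without it, and Gabra4 and Gabrb1, which share a locus, had 0.44 and 0.74. These values are not particular to those pairs. With Gabrb2 and Gabra3, both on other chromosomes, Gabra4 had 0.75 and 0.65 over 18 libraries and 0.73 and 0.67 without control replicate 2. Among tested genes with a mean of at least 1 CPM, those most like Gabrd over 18 libraries were Scn4b (0.96), Relt (0.95) and Rassf3 (0.94). For Gabra5 they were Pcdh20 (0.98), St18 (0.97) and Nr3c2 (0.97), and without control replicate 2 these 3 had 0.84, 0.82 and 0.82. For Gabra3 they were Lpgat1 (0.96) and Dpp10 (0.95). For Gabra4 they were Rsrc1 (0.94), Fam169a (0.93) and Rad21 (0.93), for Gabra2 Nabp1 (0.92), Gprin3 (0.91) and Rpe (0.88), for Gabrb1 Nebl (0.94), Fgd4 (0.94) and Lsamp (0.94) and for Gabrb2 Spag9 (0.94), Zfp638 (0.92) and Ccdc186 (0.92).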

How the data were processed

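Poly(A) RNA from 18 hippocampi was sequenced as stranded libraries, per the labels' protocols. Estimated counts of genes were deposited as 1 table without normalization, in which 22.7% of nonzero values were not whole. The submitters' processing notes name fastp, HISAT2, RSEM and GRCm38 (mm10); no source used here gives versions, the annotation release or the strand setting. Symbols were found for 51884 of 57180 identifiers, and the 5296 without hold 0.62% of counts.

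Counts were rounded and tested with edgeR 4.0.16 (R 4.3.3) on all 18 libraries with 1 term per group, TMM scaling, filterByExpr (minimum count 10, total 15) and Benjamini-Hochberg adjustment over 16738 genes. Log2 CPM used a prior count of 2. SEs were derived from the fold change and its F statistic. Scripts were tested on simulated data. Single genes were also compared by an exact permutation test over 924 regroupings (smallest possible p 0.00216). Alternatives were DESeq2 1.42.0, limma 3.58.1 voom with quality weights, RLE or library size scaling, 2 other filters, a replicate block, fits of 2 groups, a GC correction (spline of 6 degrees of freedom; 98.1% of tested genes had a GC value) and leaving out each library. Settings without control replicate 2 combined with others, and without 5 libraries, were added after seeing the data. No 2 replicates of a group were the same library (45 pairs, chi-square over genes divided by their number 9.71 to 164).

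The members, the gene lists and the tests were chosen with earlier results of these data known. Named are all GABA-A subunits, up to 2 genes of smallest p per further list and comparison, the 3 genes most correlated with each member and 4 regional markers; some of these genes are not reported here. Of the listed symbols, 2 were not in the table.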

Additional observations from a re-analysis of the deposited data

Results flagged for a closer look

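In 24 groups of 6 mice, 1 for each member and group and for the log2 ratio of extrasynaptic to synaptic subunits in each group, 4 had a highest mouse far from the others by Dixon's criterion (a gap over 0.625 of the range). Chance flags about 1 in 20 groups. Gabra2 was at 78.3 CPM in exercised CSDS replicate 3, against 30.05 to 46.6 CPM in the other 5 exercised mice. Gabrb2 was at 123 CPM in the same library, against 53.5 to 76.5 CPM. Gabra3 was at 162 CPM in control replicate 2, against 37.6 to 61.4 CPM in the other 5 control mice. Gabrd was at 88.3 CPM in that library, against 20.8 to 42.6 CPM. Control replicate 2 had 2.48 log2 CPM of dentate granule cell markers, and exercised CSDS replicate 3 had 5.34 log2 CPM of thalamic markers and the lowest GC slope, -0.44. Their part in these values was not tested.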

How the results depend on the processing

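Of 672 alternative values, 634 kept their direction and their side of the threshold or stayed close. Over all genes, CSDS against control had 0 calls by edgeR and 1 by DESeq2. In exercised CSDS against CSDS, edgeR had 0 calls, DESeq2 164, limma voom 5567, edgeR without a filter 2, with only the 2 groups 1 and with GC correction 1, and leaving out single libraries gave 0 to 625: 625 without exercised CSDS replicate 4, 43 without CSDS replicate 5, 1 without control replicate 1, 4 or 6 and 0 otherwise. In exercised CSDS against control, edgeR had 3, DESeq2 109 and limma voom 183; no filter, the 1 CPM filter, the replicate block, the 2 groups alone, GC correction, block with GC correction and the 3 settings added after seeing the data gave 0, and leaving out single libraries gave 0 to 13: 13 without exercised CSDS replicate 4, 3 without control replicate 6, CSDS replicate 6 or exercised CSDS replicate 3, 2 without exercised CSDS replicate 5 and 0 without any other library. Same-numbered libraries showed little likeness: of 18 pairs 1 had a correlation over 0.1 (range -0.47 to 0.25), and 1 matched its own number best. Such correlations cannot exclude that the replicate numbers pair the mice. The replicate block changed no call of a member; Gabra4 in exercised CSDS against CSDS was 0.51 with it. Longest transcript lengths moved the log2 ratio of extrasynaptic to synaptic subunits to 2.02, 1.95 and 1.89 in exercised CSDS, CSDS and control mice.

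Log2 fold changes that turned sign, none of them past the threshold, were these; the cause was not tested. In CSDS against control, Gabra3 was 0.019 with GC correction without control replicate 2, 0.064 with the block without it and 0.075 without the 5 libraries, and Gabra5 was -0.052 without control replicate 2 and -0.031, -0.067 and -0.13 in those 3 settings. Gabrb1 was -0.069 by limma voom and -0.038 without the 5 libraries. In exercised CSDS against CSDS, Gabra2 was -0.24 with GC correction, -0.25 with block and GC correction, -0.24 with GC correction without control replicate 2 and -0.13 without the 5 libraries, and -0.12 to 0.20 leaving out single libraries. Gabra3 was -0.029 with block and GC correction, -0.16 without the 5 libraries and -0.029 to 0.36 leaving out single libraries. Gabra5 was -0.075 with GC correction, -0.11 with block and GC correction, -0.075 with GC correction without control replicate 2 and -0.042 to 0.12 leaving out single libraries. Gabrb2 was -0.029 without the 5 libraries and Gabrd -0.034 by limma voom. In exercised CSDS against control, Gabra3 was 0.22 without control replicate 2, and 0.045 and 0.19 with GC correction or block added, and ranged from -0.46 to 0.22 leaving out single libraries. Gabra5 was -0.022, -0.11 and -0.045 in those settings and -0.022 to 0.26 leaving out single libraries. Gabrb2 was -0.077 with GC correction, -0.077 with block and GC correction, -0.065 without the 5 libraries and -0.12 to 0.21 leaving out single libraries, and Gabrd was 0.019 with GC correction without control replicate 2. The settings without 5 libraries rest on 3 control mice.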

Other observations

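Cell type and region markers were counted for the same comparisons, and edgeR called 0 genes in each list. At an unadjusted p under 0.05, 8.10% of all genes were higher and 7.46% lower in exercised CSDS against CSDS, and 1.83% and 1.68% in CSDS against control. Of 15 GABAergic interneuron markers, 4 were lower and 0 higher at an unadjusted p under 0.05 in exercised CSDS against CSDS. In CSDS against control 2 were higher and 1 lower. Without the 5 libraries 4 were lower and 0 higher in exercised CSDS against CSDS, and with GC correction 3 and 0. The mean level of these markers was lowest in exercised CSDS replicates 4 and 6, at 4.096 and 4.065 log2 CPM. The median of the exercised CSDS mice was 4.505, and the CSDS mice ran from 4.549 to 4.649 log2 CPM. The part of these 2 libraries in the lower values was not tested. Npas1, a transcription factor of interneurons, was at 8.19 ± 2.96 CPM in exercised CSDS and 13.4 ± 3.39 CPM in CSDS mice (log2 fold change -0.71 ± 0.22), and Dlx1, which specifies interneurons, at 26.2 ± 4.23 CPM in CSDS and 19.4 ± 3.40 CPM in control mice (0.43 ± 0.14). Of 12 dentate granule cell markers 1 was higher and 0 lower in exercised CSDS against CSDS, and 4 and 0 without the 5 libraries, where 5.10% of all genes were higher and 5.67% lower. Stxbp6 was at 100 ± 7.69 and 77.4 ± 13.0 CPM (0.38 ± 0.11). Of 8 CA1 markers 1 was lower there, Pou3f1 (-0.64 ± 0.28), and of 12 CA2 and CA3 markers 0 were at an unadjusted p under 0.05 in that comparison.

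Of 13 neocortical markers 2 were higher and 1 lower in exercised CSDS against CSDS, with 6 log2 fold changes positive and 7 negative. Without the 5 libraries 1 was higher and 3 lower, beside 5.10% and 5.67% of all genes. Thsd7a, 1 of the 2 higher with all libraries, was at 43.8 ± 7.70 and 32.4 ± 1.67 CPM (0.43 ± 0.12). Its groups did not overlap, as was so for 0.890% of all genes. Of 8 astrocyte markers 2 were lower in that comparison, of 8 microglia markers 1, Tmem119 (-0.47 ± 0.10, edgeR adjusted p = 0.147), and of 8 oligodendrocyte markers 0. The 8 choroid plexus markers had negative log2 fold changes in all 3 comparisons, with 0 at an unadjusted p under 0.05, and their mean level ran from 0.14 to 6.82 log2 CPM across libraries. The 3 genes called in exercised CSDS against control were Plekhf1 (-0.95 ± 0.16), Gm42664 (2.23 ± 0.36) and Gm48415 (0.90 ± 0.15), each with an edgeR adjusted p of 0.0454; they were named after their values were seen.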
